A study of Schizosaccharomyces pombe with 16 samples.

Results

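The data are the stretches of the fission yeast genome whose RNA rose in an mmi1Δ strain, read from tiling arrays that carry probes for both DNA strands. A stretch, called a run below, is a block of at least 6 consecutive probes of 1 strand whose 5-probe running median of log2(mmi1Δ/control) was 1 or more on the mmi1Δ array. The rule gave 228 runs with 3170 probes, which is 2.16% of the 146999 probes of the densely tiled part of the genome. The remaining probes of each strand were divided into windows of 10 probes, which gave 14369 windows and 14597 features in all. The mmi1Δ values selected the runs, so they are given as a description without a test. The values in the other 8 mutants come from other arrays and were tested.

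Mmi1 is a YTH-family RNA-binding protein of Schizosaccharomyces pombe. It binds a short motif in many meiotic mRNAs, the determinant of selective removal, and delivers these mRNAs to the nuclear exosome during vegetative growth. The nuclear exosome degrades RNA from the 3′ end, and Rrp6 is its nuclear exonuclease subunit. The MTREC complex is built around the zinc-finger protein Red1 and the RNA helicase Mtl1 and feeds transcripts to the exosome. Iss10 is the factor that connects Mmi1 with Red1. Pab2 is a nuclear poly(A)-binding protein and Rmn1 is an RNA-binding protein, and both associate with the complex. Cid14 is the poly(A) polymerase of the TRAMP complex, another exosome adaptor, and Sen1 is an RNA and DNA helicase.

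The arrays compared rRNA-depleted RNA of a mutant, labelled with Cy5, with that of a control strain, labelled with Cy3, and the dyes were never swapped. The mmi1Δ strain also carried mei4-P572, an allele of the meiotic transcription factor gene mei4, and so did its control, so the array compares mmi1Δ mei4-P572 with mei4-P572. The strains rrp6Δ, red1Δ, pab2Δ, cid14Δ, iss10Δ and sen1Δ had 2 arrays each and rmn1Δ had 1, all against wild-type controls. The temperature-sensitive mtl1-17 strain had 2 arrays against an mtl1-flag control. The cultures grew in YEA at 30 °C, whereas the temperature-sensitive strain was started at 23 °C and then kept 4 h at 37 °C before harvest. The red1Δ, cid14Δ, iss10Δ and rmn1Δ arrays used the same wild-type strain as control, and the other mutants had control strains of their own. The mmi1Δ strain had 1 array, which was the only array used here from its slide. No gene names come with the probes used here, so runs are named by number and by their first and last probe, and the deletion itself was not checked on the arrays. A lower level of a transcript per cell and fewer cells that make it cannot be told apart in these cultures.

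No probe was saturated on any array, and 5 to 258 probes of an array were marked as outliers. Between 49.9% and 84.5% of the densely tiled probes were well above background in the mutant channel, and between 49.0% and 77.4% in the control channel. Values of the other 8 mutants are mean log2 ratios over the probes of a run, each array centred on transcribed units. The 2 arrays of a mutant correlated over the runs with r = 0.937 for rrp6Δ, 0.956 for red1Δ, 0.960 for pab2Δ, 0.911 for mtl1-17, 0.762 for cid14Δ and 0.780 for sen1Δ. The iss10Δ arrays correlated with r = 0.480 over the 228 runs and -0.08 over all features. These correlations are across features, which are not independent replicates.

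The runs were short. The median length was 10 probes and the range was 6 to 62 probes. At the nominal 80 bp between probes of a strand this is a median span of 720 bp, with a range of 400 to 4880 bp. Of the 228 runs, 102 had 6 to 9 probes, 86 had 10 to 19, 20 had 20 to 29 and 20 had 30 or more. The strands carried 113 and 115 runs. Some runs lay close together, and 46 of them formed 20 chains of up to 4 runs with no more than 10 probes of the strand between neighbours. The mean log2 ratio of a run on the mmi1Δ array, as deposited, had a median of 1.45, which is a 2.74-fold excess over the control, and a range of 0.61 to 4.34. It was at least 2 in 52 runs and at least 3 in 11.

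The control signal, on the log2 scale, had a median of 6.99 over the runs and 7.19 over the windows on the other 15 arrays. On the mmi1Δ array, where it is part of the ratio that chose the runs, the medians were 6.81 and 7.49. In the mmi1Δ channel a median of 90.0% of the probes of a run were well above background, against 42.9% in its control channel. These channels form the ratio that chose the runs, so a gap in this direction follows in part from the rule. Over all densely tiled probes of that array the shares were 57.0% and 55.5%. No probe was well above background in the control channel of 22 runs. In 18 runs fewer than 50% of the probes were well above background in the mmi1Δ channel itself, and the ratios of these runs rest on signals close to background.

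Each run was classed by the transcribed units seen in the control channel of the other 15 arrays. There were 2547 such units, defined by a control signal above 7.85 on the log2 scale. Of the runs, 73 (32.0%) lay on a unit of the same strand (sense), 93 (40.8%) lay opposite a unit of the other strand (antisense) and 62 (27.2%) lay outside units. The shares of the windows were 44.2% sense, 35.8% antisense and 20.0% outside. The median control signal of sense runs was 9.21, below the 9.71 of sense windows, and the 9 runs above 14 were all sense. Antisense runs had a median control signal of 5.86, against 5.63 for antisense windows, and runs outside units 7.03, against 5.93 for windows outside units. The median mmi1Δ log2 ratio was 1.27 in sense runs, 1.45 in antisense runs and 1.67 in runs outside units, and their median lengths were 12, 9 and 11 probes. These classes come from signal alone, and an annotated transcript that is silent in the controls counts as outside units. The control signals compared here are those that set the classes, so differences in control signal between classes follow in part from the definition.

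**Figure D1:**
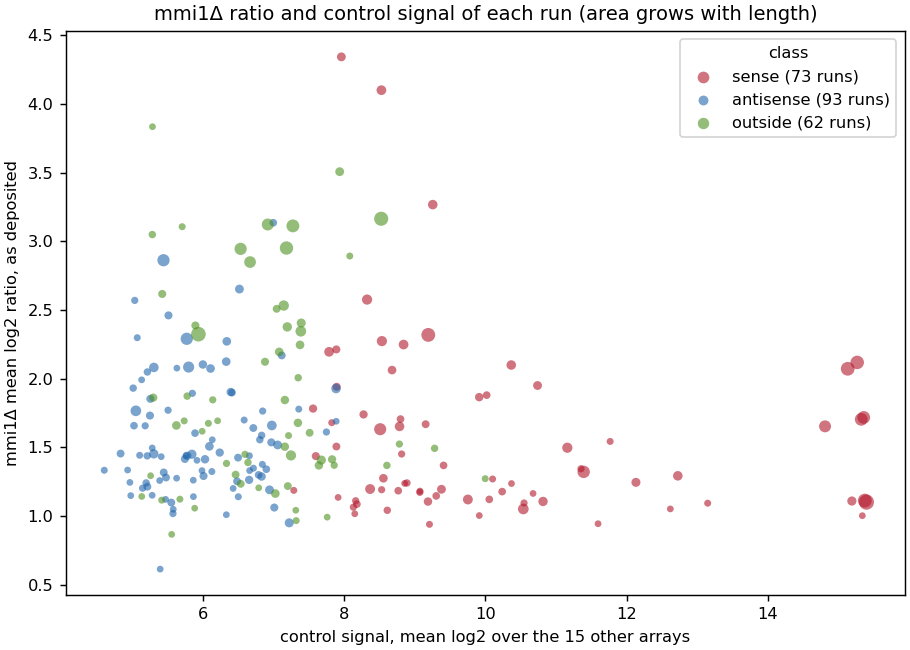
Each point is 1 of the 228 runs, with the mean control signal over the 15 other arrays (log2) on the horizontal axis and the mean mmi1Δ log2 ratio as deposited on the vertical axis. Colour gives the class (73 sense, 93 antisense, 62 outside) and area grows with the number of probes. The antisense runs sit at low control signal, which follows in part from how the classes were set. The 9 runs above 14 are separate from the rest.

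The excess lay on 1 strand in most runs. The probes of the other strand opposite a run had a median mmi1Δ log2 ratio of -0.02, and it was 1 or more in 15 runs and -1 or less in 10. In the mean profile over the 228 runs, the centred mmi1Δ log2 ratio was 0.75 at the last probe before the run, 1.47 in bin 1 of 10 bins of equal length along the run, 1.85 in bin 5, 1.58 in bin 10 and 0.71 at the first probe after it. The rrp6Δ profile had 1.15, 1.63, 1.93, 1.72 and 1.10 at the same positions. The sen1Δ profile was low throughout, with 0.19 before the run, 0.29 in bin 5 and 0.35 after it. At 10 probes before the run the rrp6Δ mean was 0.48, against 0.33 in mmi1Δ and 0.18 in red1Δ. On the other strand the means at that position were 0.45 in rrp6Δ, 0.23 in mmi1Δ and 0.18 in red1Δ.

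**Figure D2:**
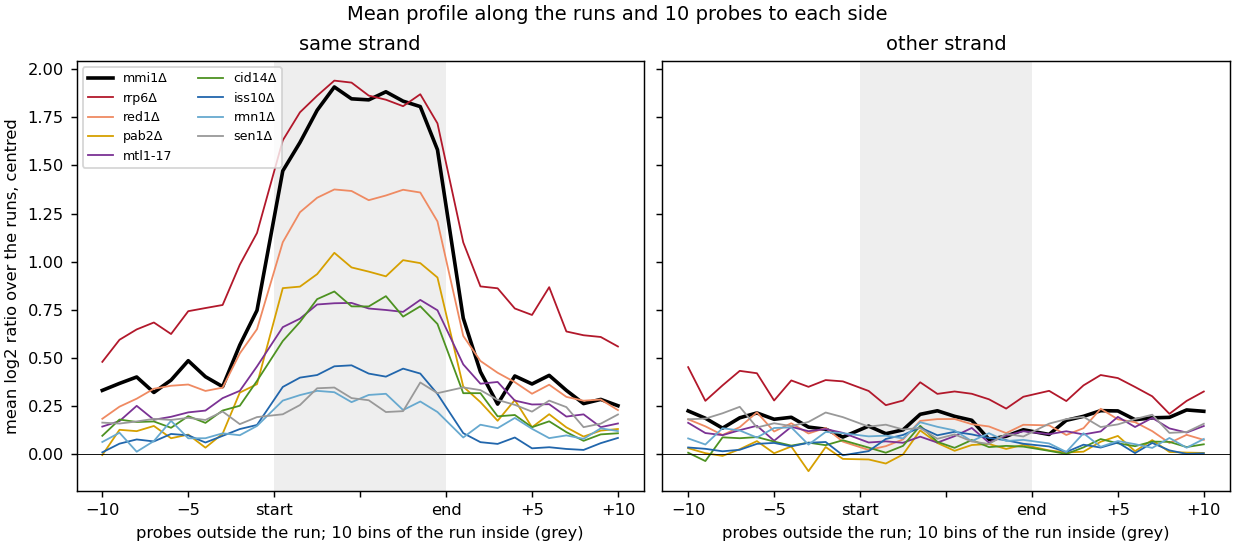
Mean centred log2(mutant/control) over the 228 runs, on the strand of the run (left) and on the other strand (right), for the 9 mutants. The horizontal axis gives 10 probes before the run, 10 bins of equal length along the run (grey) and 10 probes after it. On the strand of the run mmi1Δ reaches 1.85 and rrp6Δ 1.93 in bin 5, and on the other strand they have 0.23 and 0.31 there.

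Run 78 (probes 43683 to 43713, 16 probes, sense) had the highest mean on the mmi1Δ array. Its log2 signal was 12.1 in mmi1Δ and 7.77 in the control, a log2 ratio of 4.34. In the other mutants it had 3.37 and 3.54 in rrp6Δ, 3.69 and 3.52 in red1Δ, 3.54 and 3.27 in pab2Δ, 1.68 and 1.80 in mtl1-17, 1.43 and 1.81 in cid14Δ, 1.44 and 0.66 in iss10Δ, 0.29 in rmn1Δ, and 0.35 and -0.03 in sen1Δ. The 6 arrays of rrp6Δ, red1Δ and pab2Δ were all above the 9 arrays of mtl1-17, cid14Δ, iss10Δ, rmn1Δ and sen1Δ. With limma, run 78 rose in red1Δ by 3.60 ± 0.18 (log2, SE, adjusted p = 9.18e-09) and in iss10Δ by 1.05 ± 0.18 (adjusted p = 0.0125), and in sen1Δ its mean was 0.16 ± 0.18 (adjusted p = 0.524). The spread behind every limma SE here was pooled over the mutants with 2 arrays. An SE or p-value for iss10Δ therefore does not measure the agreement of the iss10Δ arrays alone, and rmn1Δ, with 1 array, has no spread of its own.

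Run 10 (probes 8956 to 8996, 21 probes, sense) had a log2 signal of 13.3 in mmi1Δ and 9.19 in the control, a log2 ratio of 4.10. It rose by 3.39 ± 0.26 in rrp6Δ, by 3.26 ± 0.26 in red1Δ and by 2.95 ± 0.26 in pab2Δ (limma, SE, adjusted p = 1.39e-07, 4.64e-07 and 2.33e-06). Its iss10Δ arrays had 1.07 and 0.20, and its sen1Δ arrays -0.12 and -1.39, and neither mean passed the test (adjusted p = 0.421 and 0.0572). Run 62 (probes 31870 to 31880) had 6 probes outside units and log2 signals of 9.87 in mmi1Δ and 6.03 in the control, a ratio of 3.84. It had 3.35 and 4.19 in rrp6Δ and 1.84 and 2.15 in red1Δ, and its iss10Δ arrays, 0.25 and 1.15, did not pass the test.

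Run 134 (probes 86800 to 86830, 16 probes, outside units) had log2 signals of 11.9 in mmi1Δ and 8.41 in the control, a ratio of 3.51. Its red1Δ arrays had 4.25 and 3.54, above its rrp6Δ arrays with 2.46 and 2.77, and its iss10Δ arrays had 2.04 and 1.65. It rose in iss10Δ by 1.84 ± 0.19 (limma, adjusted p = 0.000307), while its sen1Δ arrays were both below 0, with -0.34 and -0.57. Runs 82, 11, 133 and 214 (first probes 44054, 9250, 82830 and 134140) completed the 8 highest, with mmi1Δ log2 ratios of 3.27, 3.16, 3.14 and 3.12. All 8 runs rose in rrp6Δ (1.57 to 3.77), in red1Δ (1.89 to 3.90) and in pab2Δ (1.23 to 3.41). In mtl1-17 6 of the 8 were called higher, in iss10Δ 6, in cid14Δ 5, and in rmn1Δ and sen1Δ 0. Of all features 38.2% were called higher in rrp6Δ, 22.8% in red1Δ, 19.5% in pab2Δ and 16.9% in mtl1-17. The shares were 0.651% in iss10Δ, 12% in cid14Δ, 0.575% in rmn1Δ and 16.6% in sen1Δ.

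The values at the threshold of the rule are given once. The 3 members with the lowest running median were run 35 (probes 16701 to 16721, lowest running median 1.0002), run 101 (58002 to 58030, 1.0003) and run 115 (67257 to 67267, 1.0004). The 3 blocks just outside it had lowest running medians of 0.99982 (probes 102854 to 102866), 0.99814 (83573 to 83583) and 0.99494 (16168 to 16186), with mean log2 ratios of 1.13, 1.08 and 1.03.

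The question for the other mutants was how much of the RNA that rose without Mmi1 also rose when the exosome, MTREC, TRAMP or Sen1 was impaired. The order of the medians over the 228 runs was rrp6Δ 1.83, red1Δ 1.24, pab2Δ 0.88, mtl1-17 0.685, cid14Δ 0.62, rmn1Δ 0.27, iss10Δ 0.22 and sen1Δ 0.18. As folds of these medians this is 3.54 in rrp6Δ, 2.36 in red1Δ, 1.84 in pab2Δ, 1.61 in mtl1-17, 1.53 in cid14Δ, 1.21 in rmn1Δ, 1.16 in iss10Δ and 1.13 in sen1Δ. The medians over all 14597 features were 0.18, -0.07, -0.11, 0.04, -0.05, 0.03, -0.04 and 0.19 in the same order. The 2 arrays of a mutant gave medians of 1.80 and 1.88 in rrp6Δ and 1.24 and 1.24 in red1Δ, but 0.11 and 0.46 in iss10Δ. The iss10Δ, rmn1Δ and sen1Δ medians therefore differed by less than the gap between the iss10Δ arrays. With normexp background correction and loess normalization the medians were 1.29 in rrp6Δ, 0.675 in red1Δ, 0.47 in pab2Δ, 0.52 in mtl1-17, 0.33 in cid14Δ, 0.15 in rmn1Δ, 0.15 in iss10Δ and 0.08 in sen1Δ, so that pab2Δ and mtl1-17 changed places. With the deposited value table the medians were 0.13 in rmn1Δ, 0.12 in iss10Δ and 0.08 in sen1Δ.

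**Figure D3:**
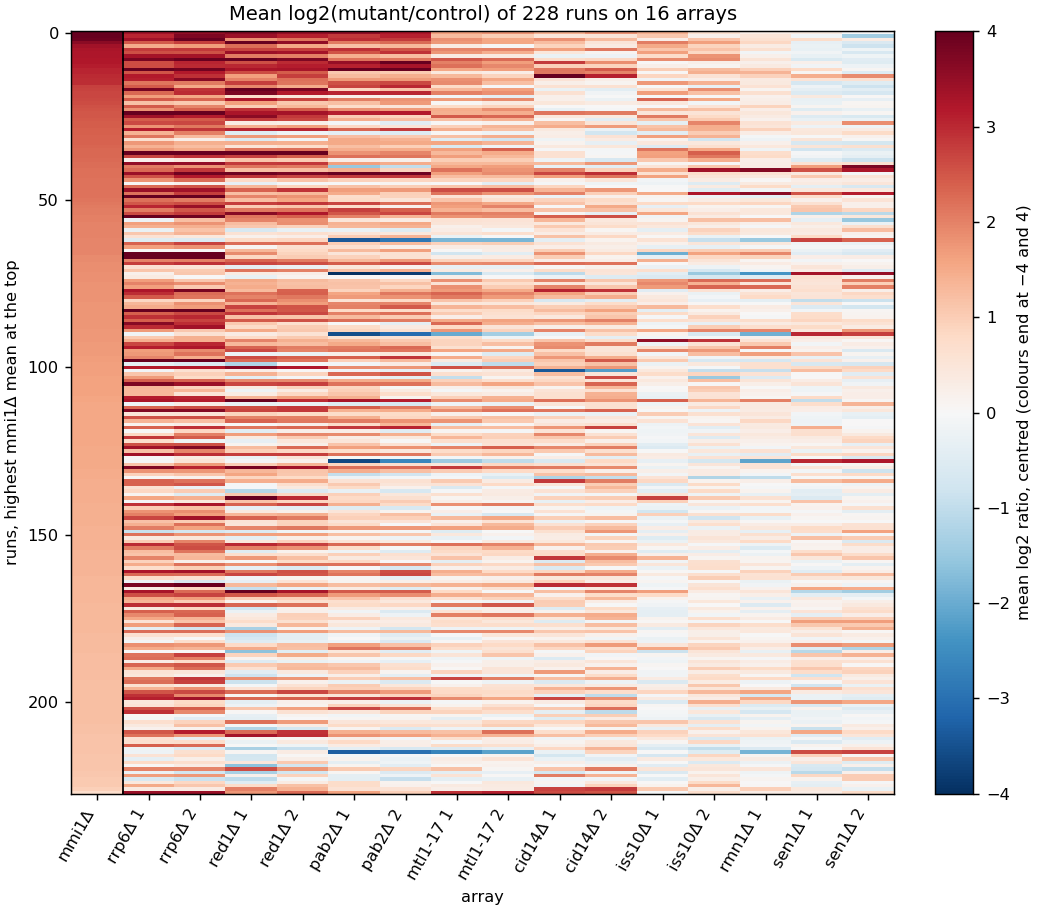
Mean centred log2(mutant/control) of the 228 runs (rows, highest mmi1Δ mean at the top) on the 16 arrays (columns, mmi1Δ first). Red is higher and blue is lower in the mutant, and colours end at -4 and 4. The rrp6Δ and red1Δ columns are mostly red, with medians of 1.83 and 1.24, and the sen1Δ columns are pale, with a median of 0.18.

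In rrp6Δ 180 runs (78.9%) were called higher by limma at an adjusted p under 0.05, where 38.2% of all features were. On its arrays 208 and 212 of the 228 runs were above 0. The median over the windows was also above 0 on these arrays, with 0.15 and 0.20, and the share of windows above 0 was not computed. The share called was 74.0% of sense runs, 76.3% of antisense runs and 88.7% of runs outside units, where 27.6%, 44.4% and 50.6% of all features of these classes were called. In red1Δ 157 runs (68.9%) were called higher, against 22.8% of all features, and in mtl1-17 123 (53.9%), against 16.9%. In pab2Δ 148 runs (64.9%) were called higher, against 19.5% of all features. In cid14Δ the count was 111 (48.7%), against 12% of all features.

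In iss10Δ 43 runs (18.9%) were called higher. Of all features 0.651% were called higher there, 95 in number, so the runs held 43 of the 95. By class, 19 of the 73 sense runs, 6 of the 93 antisense runs and 18 of the 62 runs outside units were called, where 0.545%, 0.363% and 1.4% of all features of these classes were. In rmn1Δ, with 1 array, 9 runs (3.95%) were called higher, against 0.575% of all features. In sen1Δ 47 runs (20.6%) were called higher, against 16.6% of all features, which is close to the share among all features. With the median of all probes of an array set to 0 there were 26 runs higher and 27 lower in sen1Δ. Without array 1 or array 2 of sen1Δ the count was 23 or 24, and without either array of pab2Δ the rmn1Δ count was 5.

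Few runs fell. The number called lower was 2 in rrp6Δ, 9 in red1Δ, 11 in pab2Δ, 8 in mtl1-17, 5 in cid14Δ, 4 in rmn1Δ and 11 in sen1Δ, where 18.1%, 17.6%, 18.7%, 7.1%, 11.7%, 0.0822% and 3.06% of all features were called lower. As shares of the 228 runs these were 0.877%, 3.95%, 4.82%, 3.51%, 2.19%, 1.75% and 4.82% in the same order. The rmn1Δ and sen1Δ shares were above those of all features, and the others were below. In iss10Δ limma called 0 runs lower, where 0.0685% of all features were. At an unadjusted limma p under 0.05, 8 runs were lower and 81 were higher there. The share of all features at that threshold was not computed. Values in rrp6Δ, red1Δ and the others are against different control strains, and the calls of red1Δ, cid14Δ, iss10Δ and rmn1Δ share 1 control strain.

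**Figure D4:**
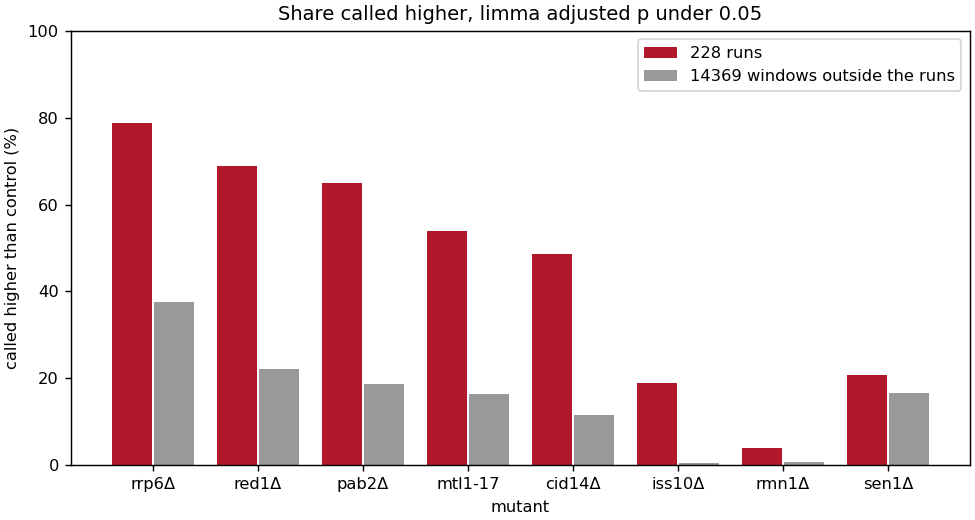
Share of the 228 runs (red, left bar) and of the 14369 windows outside the runs (grey, right bar) called higher in each mutant by limma at an adjusted p under 0.05. The bars of iss10Δ stand at 18.9% and 0.362%, those of rrp6Δ at 78.9% and 37.6%, and those of sen1Δ at 20.6% and 16.6%.

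The rule itself was also run on each other array as deposited. Runs of the rrp6Δ arrays covered 65.7% and 63.3% of the 3170 probes of the mmi1Δ runs, those of red1Δ 53.2% and 51.8%, and those of iss10Δ 24.5% and 26.6%. Runs of the sen1Δ arrays covered 8.61% and 12.6%. The shared probes made up 11.6% and 11.9% of the probes in rrp6Δ runs and 13.3% and 15.2% of those in red1Δ runs. They made up 39.5% and 26.5% of those in iss10Δ runs and 13.3% and 14.1% of those in sen1Δ runs. Of all densely tiled probes, rrp6Δ runs held 12.2% and 11.4% and red1Δ runs 8.62% and 7.37%. The iss10Δ runs held 1.34% and 2.17% of them, and the sen1Δ runs 1.40% and 1.92%.

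Of the 228 runs, 207 (90.8%) were called higher in at least 1 of the 8 mutants, against 56.6% of all features, and 21 in none. The most common number of mutants was 5, with 62 runs, and 4 runs (174 to 177, described below) were called in all 8. The 21 runs called in none had a median mmi1Δ log2 ratio of 1.18, against 1.51 for the 207, and a median length of 8 probes, against 11. Of the 43 runs called in iss10Δ, 41 (95.3%) were also called in rrp6Δ, which is 22.8% of the 180 rrp6Δ runs. Among the windows 45 of the 52 called in iss10Δ (86.5%) were also called in rrp6Δ. The 2 exceptions were runs 43 and 64 (first probes 19428 and 33154), named after their values were seen, with 1.26 and 0.93 in iss10Δ and 0.32 and 0.002 in rrp6Δ. Of the 123 runs called in mtl1-17, 122 (99.2%) were called in rrp6Δ, where 85.8% of the windows called in mtl1-17 were. Of the 47 called in sen1Δ 35 (74.5%) were, where 46.6% of the windows called in sen1Δ were. These shares stand beside the 78.9% of all 228 runs and 37.6% of all windows called in rrp6Δ.

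The runs called in iss10Δ were longer and stronger on the mmi1Δ array than the rest. Their median length was 16 probes, against 10 for the 185 others, and their median mmi1Δ log2 ratio was 2.17, against 1.41. They were 44.2% sense and 13.95% antisense, against 29.2% and 47.0% for the others. Their medians were 2.39 in rrp6Δ and 2.47 in red1Δ, against 1.70 and 0.93 for the others, whereas in cid14Δ they were 0.63, against 0.61, and in sen1Δ -0.22, against 0.27. Among the 52 runs with an mmi1Δ log2 ratio of 2 or more, 25 (48.1%) were called in iss10Δ, against 18 of the 176 below 2 (10.2%). The cid14Δ shares of the same groups were 40.4% and 51.1%. No test was made between these groups, since the calls share their arrays with the values compared. Over the 228 runs the mmi1Δ ratio correlated with r = 0.487 with red1Δ, 0.424 with pab2Δ, 0.397 with rrp6Δ, 0.378 with iss10Δ, 0.300 with mtl1-17, 0.191 with rmn1Δ, 0.07 with cid14Δ and -0.12 with sen1Δ, on points that share probes and dye orientation and that the rule chose by their mmi1Δ ratio. Over all 14597 features the order was different, with 0.368 for rrp6Δ, 0.324 for iss10Δ, 0.304 for cid14Δ, 0.265 for mtl1-17, 0.221 for red1Δ, 0.175 for rmn1Δ, 0.169 for sen1Δ and 0.165 for pab2Δ.

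Run 156 (probes 106803 to 106875, 37 probes, sense) had the highest iss10Δ value. Its iss10Δ arrays had 3.53 and 2.89, against 1.63 on the mmi1Δ array, 1.42 and 1.43 in rrp6Δ, 1.97 and 1.42 in red1Δ and 0.25 and 0.06 in sen1Δ. Both iss10Δ arrays were above all 14 other arrays. It rose in iss10Δ by 3.21 ± 0.18 (limma, SE, adjusted p = 6.9e-07), and the iss10Δ value exceeded the red1Δ value by 1.51 ± 0.25 (adjusted p = 0.000808). The iss10Δ mean was above those of the other 8 mutants at 36 of the 37 probes, and it had a median of 3.36 over the probes, with a range of 0.12 to 4.25.

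Run 106 (probes 63909 to 63949, 21 probes, sense) had 1.62 and 2.38 in iss10Δ and 2.20 on the mmi1Δ array, but 4.73 and 4.98 in rrp6Δ and 4.90 and 4.94 in red1Δ. It rose in iss10Δ by 2.00 ± 0.19 (limma, adjusted p = 0.000115), and the iss10Δ value was below the red1Δ value by 2.92 (log2, adjusted p = 1.3e-05). Its cid14Δ arrays had 0.62 and -0.04 and its sen1Δ arrays -0.04 and -0.25, and neither mean passed the test (adjusted p = 0.270 and 0.591). Run 228 (probes 144564 to 144612, 25 probes, outside units) had 2.33 and 1.56 in iss10Δ, 3.24 and 2.71 in red1Δ, and 0.19 and -0.24 in cid14Δ. It rose in iss10Δ by 1.94 ± 0.19 (adjusted p = 0.000127). Run 141 (probes 92074 to 92088, 8 probes) had 2.74 and 1.04 in iss10Δ and 4.33 and 2.99 in red1Δ, above 1.58 and 1.43 in rrp6Δ.

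**Figure D5:**
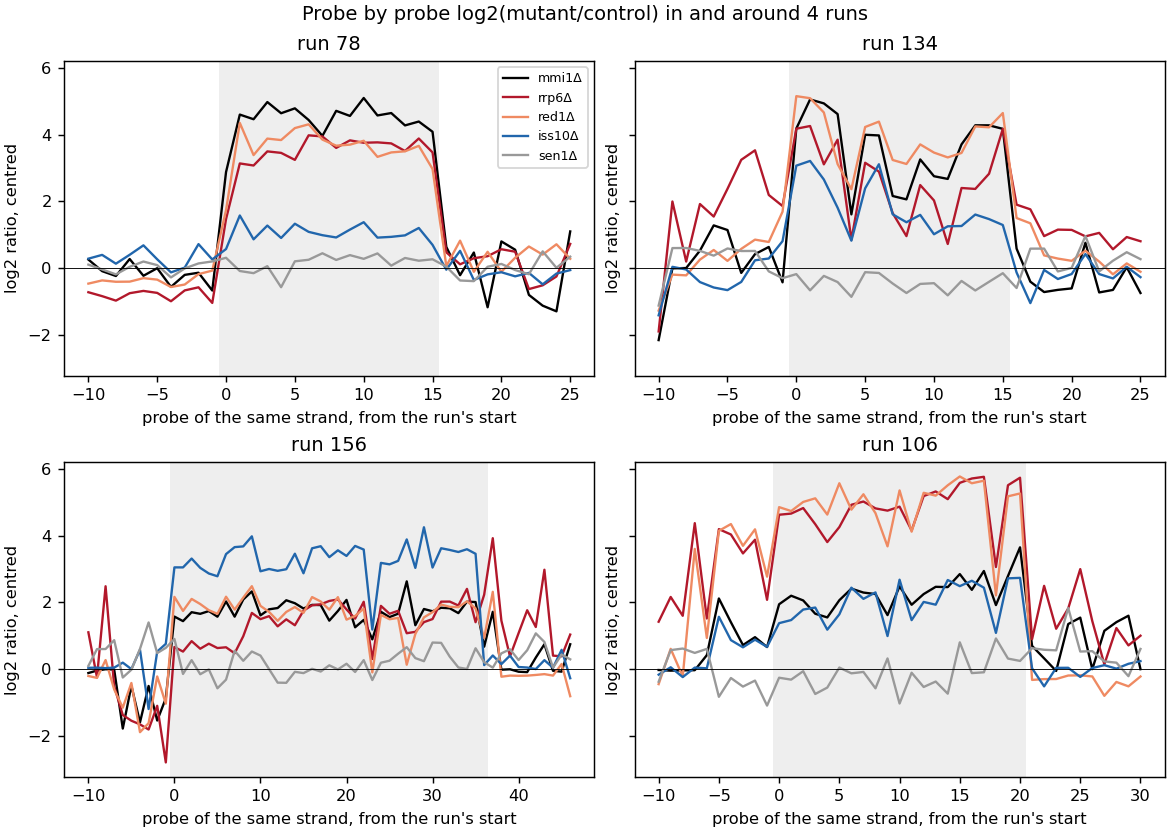
Centred log2(mutant/control) of each probe of the strand, in and up to 10 probes around runs 78, 134, 106 and 156 (grey), for mmi1Δ, rrp6Δ, red1Δ, iss10Δ and sen1Δ, each the mean of the arrays of the mutant. The mmi1Δ line is highest in run 78 (mean 4.34 as deposited), rrp6Δ and red1Δ are highest in run 106 (means 4.86 and 4.92) and iss10Δ is highest in run 156 (mean 3.21).

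A dye bias of a probe would enter every ratio, since mutants were always labelled with the same dye, but it drops out of a difference between mutants. In iss10Δ minus sen1Δ 39 runs were higher (17.1%), against 1.45% of all features, and 15 were lower, against 4.69%. Without array 1 of sen1Δ 23 runs were higher. In rrp6Δ minus sen1Δ 156 runs were higher (68.4%), against 24.2% of all features, and 11 lower (4.82%), against 17.8%. In red1Δ minus cid14Δ, which share a control strain, 94 runs were higher (41.2%), against 14.9% of all features, and 20 lower (8.77%), against 8.02%. In iss10Δ minus cid14Δ, which also share it, 20 runs were higher (8.77%), against 1.13% of all features, and 49 lower (21.5%), against 3.43%.

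In iss10Δ minus red1Δ 111 runs were lower, against 15% of all features, and 4 were higher, against 3.63%. The 4 were runs 103, 121, 156 and 205, named after their values were seen, and of these only run 156 was called higher in iss10Δ. The number higher was 21 without array 1 of iss10Δ, 1 without array 2 of iss10Δ or array 1 of red1Δ, and 2 without either array of rrp6Δ. Array 1 of iss10Δ and array 1 of red1Δ lay on the same slide, and within it the median over the runs of iss10Δ minus red1Δ was -0.80, with 173 of the 228 runs lower in iss10Δ. The median over the windows was -0.13 on each of these arrays, and the share of windows lower in iss10Δ was not computed. The other differences had no slide that held both mutants.

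The longest runs were of 2 kinds. Runs 39 and 38 (probes 17829 to 17951 and 17719 to 17819, 62 and 51 probes) were among the 3 brightest, with control signals of 15.4 and 15.4 on the log2 scale, and had mmi1Δ ratios of 1.10 and 1.11. Their values differed by at most 0.03 on any array, and in rrp6Δ both had 2.92 and 1.92 or 2.91 and 1.93. Whether their probes share sequence was not tested, and the 2 runs may not be independent. Runs 29, 11 and 164 (58, 53 and 51 probes) had control signals of 5.93, 8.52 and 9.19 and mmi1Δ ratios of 2.32, 3.16 and 2.32. Run 29 (probes 15681 to 15795) had 2.63 and 2.67 in rrp6Δ but 0.32 and 0.23 in red1Δ, and its iss10Δ arrays disagreed, with -0.35 and 1.96.

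Runs 173 to 177 (probes 113984 to 114598) formed a bright block of 5 runs with control signals of 14.8 to 15.4, and 4 of the 8 highest iss10Δ values lay in it. Run 174 had 1.49 and 3.37 in iss10Δ, 3.68 in rmn1Δ, 2.56 and 3.27 in sen1Δ, 2.27 and 2.84 in rrp6Δ and 2.12 on the mmi1Δ array, so that every mutant was above its control. The 5 runs were called higher in all 8 mutants, except run 173 in pab2Δ (0.76 ± 0.29, limma, adjusted p = 0.0534). None of runs 174 to 177 passed the test in any difference between mutants given above (limma, adjusted p of 0.102 or more). Whether a dye bias of their probes enters these values was not tested. Runs 174 and 176 differed by at most 0.14 on any array, and runs 175 and 177 by at most 0.05. Whether their probes share sequence was not tested, and the runs of a pair may not be independent. These 5 runs made up 5 of the 9 runs called in rmn1Δ. Without the 9 runs with a control signal above 14, a choice made after the data were seen, the counts were 172 in rrp6Δ, 151 in red1Δ, 141 in pab2Δ, 116 in mtl1-17, 105 in cid14Δ, 41 in sen1Δ, 38 in iss10Δ and 4 in rmn1Δ.

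The dimmest runs were antisense, a class that was itself set from the control signal. Run 144 (probes 96679 to 96691, control signal 4.60) had 1.01 and 1.20 in rrp6Δ, -0.33 and -0.37 in red1Δ and -0.27 and -0.22 in iss10Δ. Run 35 (control signal 4.83) had 2.31 and 2.58 in rrp6Δ and 2.62 and 2.83 in red1Δ, and run 76 (probes 41935 to 41945, control signal 4.93) had 2.90 and 3.28 in rrp6Δ and 2.37 and 2.67 in red1Δ. In iss10Δ neither run 35 (0.49 ± 0.19) nor run 76 (0.13 ± 0.19) passed the test (limma, adjusted p = 0.386 and 0.896). In the mmi1Δ channel 42.9%, 27.3% and 16.7% of the probes of runs 144, 35 and 76 were well above background.

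A group of runs stood apart in pab2Δ and sen1Δ. In 6 runs, picked after their values were seen, the pab2Δ mean was -1 or less (-3.90 to -1.25), and in the same 6 runs the sen1Δ mean was 2.53 to 3.41. Of these, runs 168 to 172 (probes 113450 to 113815) were neighbours, and the other was run 92. In mtl1-17 the 5 neighbours were called lower as well, with means of -2.39 to -1.19, whereas run 92 was called higher there (1.61). Run 172 (probes 113791 to 113815, 13 probes) had -3.99 and -3.81 in pab2Δ, -2.37 in rmn1Δ, 3.33 and 3.49 in sen1Δ and 1.74 on the mmi1Δ array. Its control signal differed widely between arrays, with 5.42 at the lowest, 8.46 in the middle and 11.5 at the highest of the 15 other arrays, and was 6.04 on the mmi1Δ array. It fell by 3.90 in pab2Δ and rose by 3.41 in sen1Δ (log2, limma, adjusted p = 1.78e-06 and 5.63e-05). The part of the control strains in these ratios was not tested.

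The other runs with low iss10Δ values were runs 22, 28, 100 and 171. Their iss10Δ arrays had -0.63 and -0.99 in run 22, 0.18 and -1.48 in run 28, -0.59 and -0.70 in run 100 and -0.32 and -0.71 in run 171, and none of the 4 passed the test. The lowest red1Δ means among runs called lower there were those of run 205 (-1.19), run 22 (-1.10), run 204 (-1.06), run 219 (-1.01) and run 103 (-0.94). These 5 runs had mmi1Δ ratios of 0.99 to 1.16, near the lower end of the 228. In run 205 (probes 130558 to 130568, 6 probes) the red1Δ arrays had -1.65 and -0.73 and the rrp6Δ arrays 0.05 and 0.32, and in run 204 the red1Δ arrays had -1.65 and -0.47.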

How the data were processed

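Strains, arrays and labels were as given in the labels and methods. The authors scanned the 2-colour Agilent tiling arrays and extracted them with Feature Extraction 10.7.3.1 (the file of 1 rrp6Δ array names 10.7.1.1). The deposited spot intensity values are background-subtracted and dye-normalized processed signals, and the authors' files also hold a log10 ratio per probe. The deposited value table holds log2 ratios that were set to 0 where the probe's p-value was above 0.05, a match (tolerance 0.01) that covered 98.2% of probes or more on 15 arrays but 77.0% on sen1Δ replicate 2. These 2 columns were used only as alternatives.

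From the processed signals, log2(mutant/control) was computed per probe, outlier probes were left out, and each array was centred on its mean over transcribed units of the control channel. The rule was applied to the mmi1Δ array as deposited. Run and window means of the 15 other arrays were fitted with limma 3.58.1 in R 4.3.3 (8 mutants, 7 residual degrees of freedom, two-sided, Benjamini-Hochberg over 14597 features, adjusted p under 0.05). On data simulated for iss10Δ over 14597 features, 154 of 200 features changed by 1 (log2) and 198 of 200 changed by 2 were recovered, with 8 and 14 false calls. The simulated noise was independent between arrays, with a spread pooled over the mutants with 2 arrays. These numbers therefore do not measure recovery on the real iss10Δ arrays, which correlated with r = -0.08 over all features. Precision is limited by the number of arrays. The replicates of a mutant are, per the methods, biological.

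The members and lists were chosen with earlier results of these data known. Named runs were the 8 with the highest mmi1Δ mean, the 5 longest, the 8 highest in iss10Δ among those called with both arrays above 0, the 5 lowest in iss10Δ, up to 5 called lower in rrp6Δ or red1Δ, the 3 brightest and 3 dimmest, and the 3 just inside and outside the threshold. Alternatives changed the centring, background correction, probe filters, run summary, window size, size filter, slide term, replicate block, single arrays and the rule itself. The sparsely tiled probes were not used here. Python 3.11.15, numpy 2.4.6, pandas 2.3.3 and scipy 1.17.1 were used.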

Additional observations from a re-analysis of the deposited data

How the results depend on the processing

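With 1 mmi1Δ array, the membership of the runs has no replicate check. The number of runs was 96 with a running median of at least 1.5, 126 with at least 10 probes and 99 with the rule on normexp and loess ratios, against 228. The share called higher with the running median of at least 1.5 and with the rule on normexp and loess ratios was 37.5% and 34.3% in iss10Δ, 16.7% and 18.2% in iss10Δ minus cid14Δ, and 30.2% and 31.3% in iss10Δ minus sen1Δ. It was 13.5% in iss10Δ minus cid14Δ with at least 10 probes, 7.29% in rmn1Δ with a running median of at least 1.5 and 1.01% in iss10Δ minus red1Δ with the rule on normexp and loess ratios.

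Of the alternatives to the 13 counts of runs called higher that left all arrays in, all were within 1.5 times except the following. In cid14Δ 73 runs were called with a log2 ratio of at least 1 required. In rmn1Δ 4 were called with the median over probes, with normexp and loess, with the series value table and without runs of control above log2 14. In sen1Δ 27 were called with a log2 ratio of at least 1 required, 26 with the median of all probes set to 0, 29 with normexp and loess and 24 with the value table. In iss10Δ minus red1Δ 2 were higher with the median of all probes set to 0, 1 with normexp and loess and 10 with slide as a fixed term, against 4.

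The sen1Δ median over the runs was 0.11 with the deposited log ratio and 0.08 without centring. Centring on the median of all probes moved it to -0.088, and the median over all features there to -0.08, against 0.19. The median over all features was then 0.11, against -0.07, in red1Δ and 0.06, against -0.11, in pab2Δ, and without centring it was -0.06, against 0.18, in rrp6Δ and 0.09, against 0.19, in sen1Δ. With the median centring 26 runs were higher and 27 lower in sen1Δ (49.1% higher, against 81% of the calls), and 89.7% of the calls in iss10Δ minus sen1Δ were higher, against 72.2%. Without centring that share was 83.3%. In rmn1Δ it was 85.7% with the median centring and 100% with normexp and loess, against 69.2%. The cause of these changes was not tested.

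Leaving out 1 array in turn gave 170 to 185 runs higher in rrp6Δ, 134 to 159 in red1Δ, 105 to 151 in pab2Δ, 87 to 130 in mtl1-17, 80 to 128 in cid14Δ, 33 to 44 in iss10Δ, 5 to 13 in rmn1Δ and 23 to 63 in sen1Δ. For iss10Δ minus red1Δ the range was 1 to 21 and for iss10Δ minus sen1Δ 23 to 39. A lone remaining array was assumed to vary like the other groups. With the replicate number as a block the counts were 184 in rrp6Δ, 43 in iss10Δ and 51 in sen1Δ, and no count moved by over 1.5 times. The deviations of same-numbered arrays correlated between -0.39 and 0.53, so the numbers do not pair the arrays. The highest value was that of red1Δ and iss10Δ, whose arrays 1 lay on the same slide. Some slides held arrays of more than 1 mutant, such as array 2 of rrp6Δ, red1Δ and pab2Δ. The main fit had no slide term, and with slide as a random block the estimated correlation within a slide was 0.34. With slide as a fixed term, which left 1 residual degree of freedom, only the differences of the report without sen1Δ were computed, and with slide as a random block 42 runs were higher in iss10Δ. The deposited log ratio and the counts without runs of control above log2 14 were chosen after seeing the data.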

Other observations

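The same rule turned downward on the mmi1Δ array gave 254 runs that were lower than in the control, with a median length of 8 probes and a longest run of 35. Their control signal on the other 15 arrays had a median of 7.94 on the log2 scale, above the 6.99 of the runs that rose. Their median log2 ratio was -0.34 and -0.41 on the rrp6Δ arrays, -0.16 and -0.35 on the red1Δ arrays, 0.01 and -0.38 on the iss10Δ arrays and -0.28 and -0.29 on the sen1Δ arrays. On the rrp6Δ arrays 63 and 71 of the 254 were at -1 or less, and 24 and 25 were at 1 or more. Among the windows 17.3% and 17.9% were at 1 or more on these arrays, and the share at -1 or less was not computed. In rrp6Δ 18.1% of all features were called lower by limma, which is another measure. These values are a description and were not tested.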
